A study of Homo sapiens with 6 samples.

Results

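In C4-2 cells, a castration-resistant prostate cancer line, the PER genes of the circadian clock responded in opposite directions to a supraphysiological androgen level (SAL). PER1 rose 1.84-fold under SAL, while PER3 fell to 0.63 times and PER2 to 0.76 times the control level. PER2 was just past the threshold. It fell short in 5 of 11 alternative ways of processing, PER1 in 2 and PER3 in 1. The share of clock genes past the threshold was near the 20.8% of all genes tested. The genes whose products drive the clock, CLOCK and ARNTL, and the CRY genes were not past the threshold. Their fitted changes were at most 0.13 on the log2 scale in either direction, with 95% intervals reaching from -0.33 (ARNTL) to 0.48 (CRY2). NR1D2, BHLHE40 and DBP, at -0.22, 0.25 and -0.56, were not past it either. The genes described here are 10 clock genes chosen by their symbols, PER1, PER2, PER3, CRY1, CRY2, ARNTL (now named BMAL1), CLOCK, NR1D2, DBP and BHLHE40, of 55765 gene symbols counted. All 10 had counts in every library and passed the filter on low counts, which left 16835 genes for the tests.

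RNA-seq was performed on 6 C4-2 cultures, a subline of the prostate cancer line LNCaP that grows under low androgen. The cells were grown in DMEM with 5% FBS and then treated for 72 h, 3 with the solvent DMSO and 3 with 1 nM R1881 (methyltrienolone, a stable synthetic androgen), which is the SAL group. The replicates of each group are numbered 1 to 3, and the study names a paired test and independent repeats. All libraries come from 1 cell line at 1 time after treatment, and the hour of harvest is not given in the labels, so no phase of the clock can be assigned.

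The circadian clock is a feedback loop that runs in nearly every cell. CLOCK and ARNTL form a dimer that binds E-boxes and switches on the PER and CRY genes, and PER and CRY proteins then enter the nucleus and inhibit that dimer. A further loop runs through NR1D2 (REV-ERB beta), a nuclear receptor that represses ARNTL. DBP is a transcription factor that binds D-boxes in output genes and in PER promoters, and BHLHE40 (DEC1) is a repressor that competes for E-boxes. Steroid hormones can act on this loop, and PER1 is a known direct target of the glucocorticoid receptor.

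The promoters of the PER genes differ in the clock elements they hold, and are shown because these genes differed in their response. Any link between the elements and the response was not tested. RefSeq promoter windows (GRCh38.p14) were matched for all 10 genes, with 15 windows because 5 genes have more than 1 annotated start. The 250 bases before each start were searched on both strands for the E-box, which reads CACGTG on either strand of the promoter. A related element that the CLOCK dimer also binds was searched as CACGTT, and the D-box as TTATGTAA. The half-site of steroid receptors was searched as AGAACA, and so was its palindrome, in which the half-site is followed after any 3 bases by its reverse complement. The matches to the clock elements, in capitals below, do not overlap each other. For PER1 (chr17:8152455-8152654, minus strand) and PER3 (chr1:7784041-7784240, plus strand), 200 bases are printed 5′ to 3′, from 250 to 51 bases before the start. The E-box of PER1 begins 173 bases and the D-box of PER3 177 bases before it. Another annotated window of PER3 (chr1:7784179-7784428, plus strand) held none of the elements searched.
PER1: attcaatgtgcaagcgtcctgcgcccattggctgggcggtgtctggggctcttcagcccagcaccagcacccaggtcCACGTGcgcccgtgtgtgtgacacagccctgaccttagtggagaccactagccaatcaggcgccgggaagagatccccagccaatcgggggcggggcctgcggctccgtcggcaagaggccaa
PER3: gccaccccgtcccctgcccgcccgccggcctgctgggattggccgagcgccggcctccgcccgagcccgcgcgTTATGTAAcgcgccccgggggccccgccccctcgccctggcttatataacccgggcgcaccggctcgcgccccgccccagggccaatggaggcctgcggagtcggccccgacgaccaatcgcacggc

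In the other windows that held a clock element, the element is shown with the bases on either side of it. It is again in capitals and 5′ to 3′ on the strand of the gene.
PER2 (chr2:238288790-238288819, minus strand): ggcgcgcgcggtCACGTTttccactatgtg
CRY1 (chr12:107093621-107093650, minus strand): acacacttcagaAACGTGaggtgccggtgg
CRY2 (chr11:45847275-45847304, plus strand): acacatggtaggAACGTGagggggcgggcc
CLOCK (chr4:55546102-55546131, minus strand): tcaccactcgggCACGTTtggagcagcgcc
NR1D2 E-box (chr3:23945954-23945983, plus strand): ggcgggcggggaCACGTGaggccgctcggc
NR1D2 E-box closer to the start (chr3:23946004-23946033, plus strand): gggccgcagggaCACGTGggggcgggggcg
NR1D2 D-box (chr3:23945916-23945945, plus strand): gtgacgcggcaTTACATAAtgggcgctgag
BHLHE40 (chr3:4979187-4979209, plus strand): tccaaCACGTGagactcatgtga

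Thus an E-box was found for 3 of the 10 genes (3 of 15 windows, against 6.34% of 35116 RefSeq windows), the CACGTT element for 4 (4 of 15 windows, against 4.55%) and a D-box for 2 (2 of 15 windows, against 0.834%). The half-site AGAACA was found for BHLHE40 alone among the 10 genes (1 of 15 windows, against 12.4% of all windows), and the palindrome for none, against 0.00285%. A match is a run of letters and not a measured binding site, and elements outside these 250 bases were not searched.

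Between 6931042 and 9776990 counts per library remained after the removal of rRNA genes. The rRNA genes had taken 11.9% to 27.7% of the gene counts in DMSO and 17.4% to 27.8% in SAL. Reads outside annotated exons, which can lie in introns or between genes, made up 32.6% to 51.1% of the uniquely mapped reads in DMSO. In SAL, they made up 26.7% to 46.3%. With the rRNA genes kept, PER1 (0.88), PER2 (-0.39) and PER3 (-0.67) had the same log2 fold changes and calls. The part of the reads outside exons was not tested. The known androgen-induced genes KLK2, KLK3, TMPRSS2 and FKBP5 rose in SAL, with log2 fold changes from 0.77 to 3.36. The 6 luminal prostate markers reported here (KLK2, KLK3, FOLH1, HOXB13, KRT8 and KRT18) were present in every library, and their summed level was 2075 to 3424 CPM (counts scaled by library size) in DMSO and 3454 to 5725 in SAL. Of these, 4 rose and none fell. The 10 markers of basal, immune, stromal, endothelial and neuroendocrine cells summed to 4.64 to 18.4 CPM in DMSO and 5.18 to 16.6 in SAL. KRT5 and PTPRC were at 0 in every library, and PECAM1 had no row.

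To ask which clock genes responded to SAL, the 3 DMSO and 3 SAL libraries were compared pair by pair with edgeR's quasi-likelihood test, with the replicate number as a block and Benjamini-Hochberg adjustment over all genes tested. Of the 10 clock genes, 1 was up-regulated (11.5% of all genes tested were) and 2 were down-regulated (9.37% of all genes), with an adjusted p under 0.05. This is 3 of 10 in either direction, against 20.8% of all genes, so the share is near that of the background and says little about the genes as a group. At an unadjusted p under 0.05 there were 6 of 10, against 32.4% of all genes. The median log2 fold change of the 10 was -0.0039, against -0.0011 over all genes. In none of the 10 did the levels of the groups separate, against 7.51% of all genes whose groups did not overlap. The same direction in all 3 pairs was seen for 5 of the 10 (PER1 and BHLHE40 higher, PER2, PER3 and NR1D2 lower), against 51.2% of all genes (25.9% higher and 25.3% lower). The share of all genes called depended on the setting. DESeq2 with the block called 7.66% of all genes up and 5.64% down, and 1 clock gene in each direction (PER1 and PER3). Without replicate 1, 14.6% and 11.7% of all genes were called, without replicate 2, 9.1% and 7.92%, and without replicate 3, 4.41% and 2.84%. Without the block, 0.107% and 0.0178% were. Library size alone in place of TMM called 8.16% up and 13.8% down, with 1 and 4 of the clock genes, and no filter on low counts 6.68% and 4.84% of a longer gene list, with 1 and 1. In bulk RNA, fewer cells with a transcript and less of it per cell cannot be told apart.

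**Figure D1:**
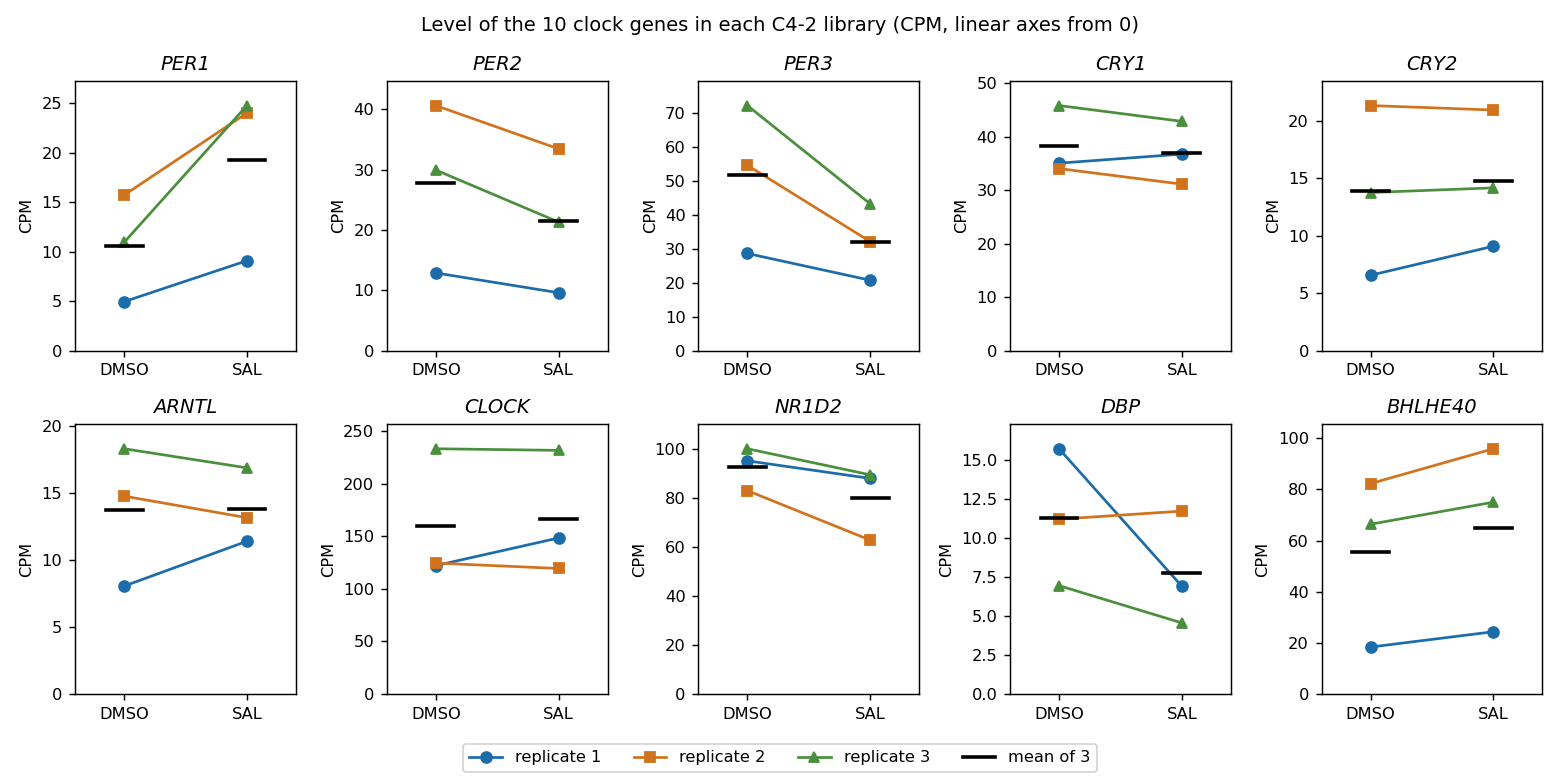
Level of each clock gene in CPM (TMM-scaled counts, linear axes from 0) in the DMSO and SAL library of each replicate number, with a line joining each pair and a black bar at the mean of 3. The 3 lines rise for PER1 and BHLHE40 and fall for PER2, PER3 and NR1D2, and the distance between the lines exceeds their slope for most genes.

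PER1, one of the PER proteins that close the feedback loop, is encoded on chromosome 17 (8043790 to 8059824, minus strand, GRCh37). Replicates 1, 2 and 3 held 40, 115 and 82 PER1 counts under DMSO and 71, 219 and 201 under SAL. Scaled by TMM, this was 4.96, 15.7 and 11 CPM in DMSO and 9.09, 24.0 and 24.8 CPM in SAL. The SAL library was the higher in every pair, but SAL replicate 1 was below DMSO replicates 2 and 3, so that the groups overlapped. The mean rose from 10.5 ± 5.40 to 19.3 ± 8.84 CPM (SD, n = 3). The log2 fold change was 0.88 (standard error 0.17, 95% interval 0.52 to 1.24, adjusted p = 0.00159), with differences of 0.84, 0.60 and 1.16 in the 3 pairs. Without replicate 3, the change was 0.72 and no longer past the threshold (adjusted p = 0.0898). Without the replicate block, which leaves the spread between replicate numbers in the error, it was 0.87 (adjusted p = 1.00).

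PER3, the PER gene that mouse studies find least needed for rhythm, is encoded on chromosome 1 (7844351 to 7905237, plus strand, GRCh37). Replicates 1, 2 and 3 held 231, 399 and 540 PER3 counts under DMSO and 162, 293 and 351 under SAL. In CPM, these were 28.6, 54.6 and 72.2 in DMSO and 20.7, 32.1 and 43.2 in SAL. All 3 pairs showed the SAL library below its DMSO partner, while DMSO replicate 1 was below SAL replicates 2 and 3, so that the groups overlapped. The mean fell from 51.8 ± 21.9 to 32.0 ± 11.3 CPM (SD, n = 3). The log2 fold change of PER3 was -0.67 (standard error 0.11, 95% interval -0.91 to -0.43, adjusted p = 0.000522), with -0.46, -0.76 and -0.74 in the pairs. It was past the threshold in each fit that left out a replicate, closest without replicate 3 (adjusted p = 0.0495), and not without the replicate block, at a log2 fold change of -0.69 (adjusted p = 1.00). Other annotated genes, UTS2 among them, overlap 16.6% of the exon bases of PER3 on the other strand, and the counting without strand cannot assign reads there.

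PER2, which together with PER1 is the main partner of the CRY proteins, is encoded on chromosome 2 (239152685 to 239198743, minus strand, GRCh37). Replicates 1, 2 and 3 held 104, 297 and 224 PER2 counts under DMSO and 75, 305 and 173 under SAL. In CPM, these were 12.9, 40.6 and 29.9 in DMSO and 9.60, 33.4 and 21.3 in SAL, lower in each pair with wide overlap of the groups. The mean fell from 27.8 ± 14.0 to 21.5 ± 11.9 CPM (SD, n = 3). With a log2 fold change of -0.39 (standard error 0.13, 95% interval -0.67 to -0.11, adjusted p = 0.0469), PER2 was just past the threshold. The pair differences of -0.41, -0.28 and -0.48 were close to each other. DESeq2 with the block no longer called it (adjusted p = 0.192), nor did edgeR when replicate 2 or 3 was left out (adjusted p = 0.0711 and 0.388), when low counts were not filtered (adjusted p = 0.0710) or when the block was dropped (adjusted p = 1.00), while the change stayed between -0.34 and -0.50 over all alternatives.

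**Figure D2:**
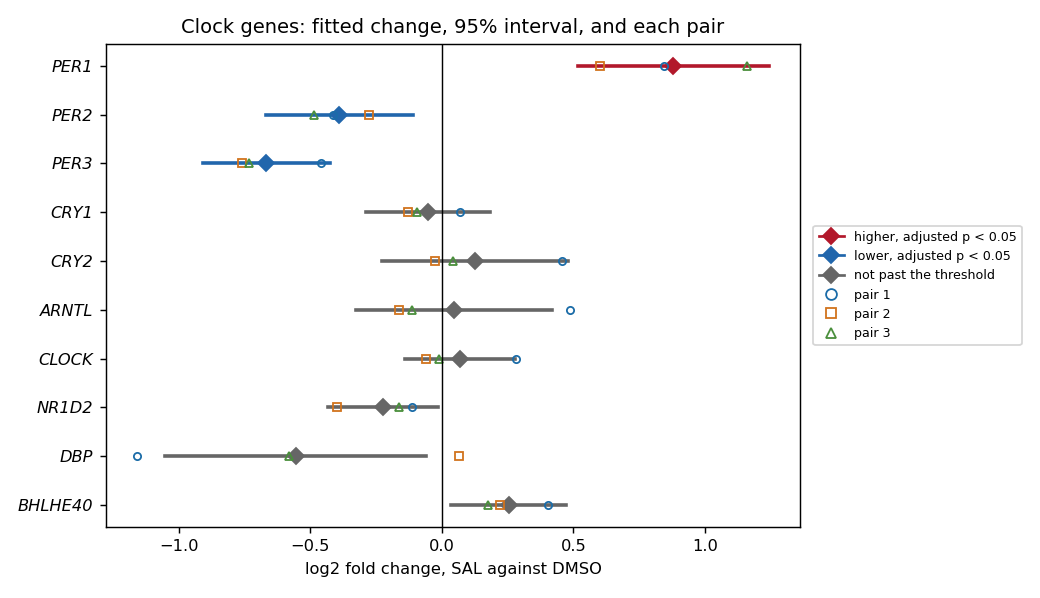
Fitted log2 fold change of SAL against DMSO for each clock gene (diamonds) with its 95% interval (bars), and the difference in each pair (open symbols). PER1 at 0.88 lies right of 0 with its interval, PER2 at -0.39 and PER3 at -0.67 lie left of it, and the pairs of DBP spread from -1.16 to 0.06.

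Set against each other within a library, where depth and scaling cancel, PER1 rose relative to PER2 and to PER3 in every pair. The ratios rest on the same counts as the fits above, so they describe these changes and add no separate support. For every 100 PER2 counts, replicates 1, 2 and 3 held 38.5, 38.7 and 36.6 PER1 counts under DMSO and 94.7, 71.8 and 116 under SAL. The DMSO libraries were thus nearly equal in this ratio, although their PER1 levels differed 3.17-fold, and every SAL library was above every DMSO library. The log2 ratio of PER1 to PER2 was -1.4 ± 0.04 in DMSO and -0.11 ± 0.35 in SAL (SD, n = 3), a difference of 1.29 or 2.44-fold (p = 0.1 by a two-sided exact permutation test, which cannot go lower with 3 libraries against 3). The ratio of PER1 to PER3 also separated the groups, with 17.3, 28.8 and 15.2 PER1 counts per 100 PER3 counts in DMSO and 43.8, 74.7 and 57.3 in SAL. Its log2 ratio was higher in SAL by 1.54 or 2.91-fold, by 1.34, 1.37 and 1.92 in the pairs (exact permutation p = 0.1). PER2 and PER3, which both fell, differed from each other by 0.26 on the log2 scale between the groups, with overlap (exact permutation p = 0.5). In the pairs, the log2 ratio of PER2 to PER3 rose by 0.04, 0.48 and 0.25. The exact permutation test does not use the pairing, so the spread between replicate numbers stays in its p-value. Adjusted over the 5 ratios computed, the p-values were 0.25, 0.25 and 0.833 in this order of exact permutation tests, and none could have passed the threshold in this design.

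**Figure D3:**
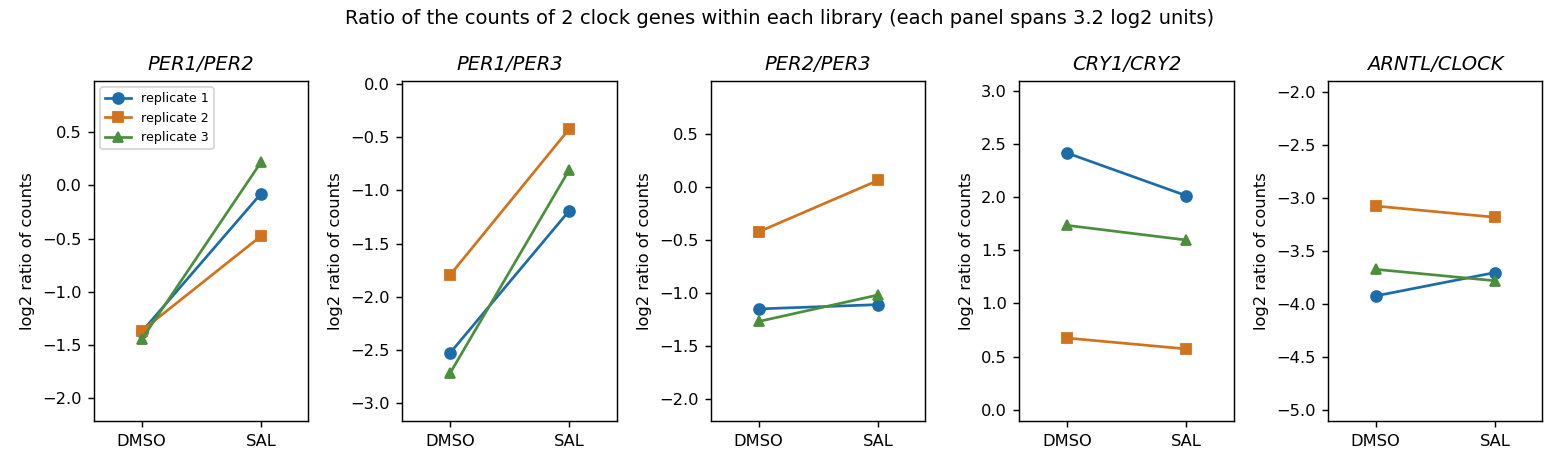
Log2 ratio of the counts of a pair of clock genes in each library, with a line joining the DMSO and SAL library of each replicate number, and every panel spanning the same 3.2 log2 units. The ratios of PER1 to PER2 and PER1 to PER3 rise in all 3 pairs and separate the groups. PER2 to PER3 rises by 0.04 to 0.48 and CRY1 to CRY2 falls by 0.10 to 0.40, both with overlap. ARNTL to CLOCK rises by 0.22 in pair 1 and falls by 0.11 in pairs 2 and 3.

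Per length of exon, PER1 was the lowest of the PER genes in every DMSO library, and in SAL it was above PER2 in replicate 3 alone. RPKM (CPM per kilobase of annotated exon) of PER1 in replicates 1, 2 and 3 was 0.708, 2.25 and 1.56 with DMSO and 1.30, 3.43 and 3.54 with SAL. In the summed RPKM of the 3 PER genes, PER1 made up 11.7%, 15.3% and 10.7% in the DMSO libraries and 24.9%, 28.3% and 29.8% in the SAL libraries. The share of PER3 was 54.8% ± 7.98 in DMSO and 42.2% ± 8.5 in SAL, and that of PER2 was 32.6% ± 5.57 and 30.1% ± 7.69 (SD, n = 3). The summed RPKM was 6.05, 14.7 and 14.7 in DMSO and 5.21, 12.1 and 11.9 in SAL, lower in each pair. These shares rest on the same counts as the ratios above and are given as a description.

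The CRY genes encode the cryptochromes, the strongest inhibitors of the CLOCK-ARNTL dimer, and neither passed the threshold. CRY1 (chromosome 12, 107385142 to 107487327 in GRCh37) had 35.1, 34.0 and 45.8 CPM in DMSO and 36.8, 31.1 and 42.9 CPM in SAL. Its log2 fold change was -0.05 (95% interval -0.29 to 0.18, adjusted p = 0.795), so a change beyond about 1.2-fold (0.818 to 1.14) lies outside the interval. CRY2 (chromosome 11, 45868669 to 45904799) had 6.57, 21.3 and 13.8 CPM in DMSO and 9.09, 20.9 and 14.2 CPM in SAL, with the higher library in pair 1 alone set apart from its partner. The log2 fold change of CRY2 was 0.13 (95% interval -0.23 to 0.48, adjusted p = 0.652), with 0.45, -0.03 and 0.04 in the pairs. The log2 ratio of CRY1 to CRY2 was 1.61 ± 0.88 in DMSO and 1.4 ± 0.74 in SAL (SD, n = 3; exact permutation p = 0.7, adjusted p = 0.875 over the 5 ratios), lower in SAL in all 3 pairs by 0.40, 0.10 and 0.14.

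CLOCK and ARNTL, the driving dimer, also did not pass the threshold. CLOCK (chromosome 4, 56294070 to 56413076 in GRCh37) was the most deeply counted of the 10 genes, at 910 to 1745 counts under DMSO and 1088 to 1880 under SAL. Its CPM of 122, 124 and 233 in DMSO and 148, 119 and 232 in SAL followed the replicate number rather than the treatment. Its log2 fold change was 0.07 (95% interval -0.14 to 0.28, adjusted p = 0.680). ARNTL (chromosome 11, 13298199 to 13408813) had 8.05, 14.8 and 18.3 CPM in DMSO and 11.4, 13.2 and 16.9 CPM in SAL, up in pair 1 and down in pairs 2 and 3. The log2 fold change of ARNTL was 0.04 (95% interval -0.33 to 0.42, adjusted p = 0.894). Its paralog ARNTL2 and the CLOCK paralog NPAS2, which can take the same places in the dimer, had log2 fold changes of -0.31 (adjusted p = 0.0693) and 0.21 (adjusted p = 0.507).

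Among the 10 clock genes, the feedback and output regulators NR1D2, BHLHE40 and DBP did not pass the threshold. Each of them had an unadjusted p under 0.05. NR1D2 (chromosome 3, 23986777 to 24022108 in GRCh37) had 95, 82.9 and 99.9 CPM in DMSO and 87.9, 62.7 and 89.3 in SAL, lower in each pair. Its log2 fold change was -0.22 (95% interval -0.43 to -0.01, adjusted p = 0.128). NR1D1 (REV-ERB alpha), its better known paralog, was low at 6 to 67 counts per library and changed by -0.36 (adjusted p = 0.420), and the exons of THRA overlap 18.0% of its exon bases on the other strand. BHLHE40 (chromosome 3, 5021122 to 5027008) had 18.3, 82.3 and 66.4 CPM in DMSO and 24.3, 95.9 and 75.0 in SAL, higher in each pair. The log2 fold change of BHLHE40 was 0.25 (95% interval 0.03 to 0.47, adjusted p = 0.0985), and BHLHE40-AS1 overlaps 12.8% of its exon bases.

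DBP was the least stable of the 10 genes between pairs. It lies on chromosome 19 from 49133287 to 49140636 in GRCh37, and SPHK2 overlaps 10.2% of its exon bases on the other strand. DBP had 127, 82 and 52 counts in DMSO and 54, 107 and 37 in SAL, or 15.7, 11.2 and 6.95 CPM against 6.92, 11.7 and 4.56. It was lower in SAL in pairs 1 and 3, by 1.16 and 0.58 on the log2 scale, and about equal in pair 2. Its log2 fold change was -0.56 (standard error 0.23, 95% interval -1.05 to -0.06, adjusted p = 0.111). Without replicate 2, this was -0.96 and past the threshold (adjusted p = 0.0162), and without replicate 1 it was -0.20 (adjusted p = 0.603), so that both size and call rested on single pairs.

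The clock genes differed in how far their level varied between replicate numbers in DMSO alone. The highest library was 4.49 times the lowest for BHLHE40, 3.25 times for CRY2, 3.17 times for PER1 and 3.15 times for PER2, and only 1.21 times for NR1D2 and 1.35 times for CRY1. More than 2-fold was seen for 7 of the 10, against 58.8% of all genes tested. In both groups, replicate 1 was below 0.5 times replicates 2 and 3 for PER1, PER2 and BHLHE40, as it was for 14.5% of all genes. DBP went the other way in DMSO, with replicate 1 the highest library. Between such replicates, only the comparison within pairs resolved the changes of PER1, PER2 and PER3.

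Ordered by mean RPKM in DMSO, the genes were NR1D2 (16.0 ± 1.52), BHLHE40 (15.8 ± 9.47), CLOCK (13.9 ± 5.50), CRY1 (8.01 ± 1.37), PER3 (6.37 ± 2.69), PER2 (3.92 ± 1.97), CRY2 (2.24 ± 1.19), ARNTL (1.98 ± 0.75), DBP (1.74 ± 0.68) and PER1 (1.51 ± 0.77) (SD, n = 3). Of the neighbours in this order, CLOCK and CRY1 were the only pair whose DMSO libraries did not overlap. Exon lengths were taken from a newer annotation than the one counted on, so the order is approximate. Exon bases numbered 11533 for CLOCK and 6934 for ARNTL, so their ratio of counts overstates the gap per length. The driving dimer was unequal in its counts, with 6.60, 11.9 and 7.85 ARNTL counts per 100 CLOCK counts in DMSO and 7.69, 11 and 7.29 in SAL. This log2 ratio was -3.56 ± 0.43 in DMSO and -3.55 ± 0.33 in SAL (SD, n = 3; exact permutation p = 1.00).

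Of 32 other genes of the clock, its kinases, ligases, cofactors and outputs, 29 passed the filter on low counts, and 2 rose and 4 fell (11.5% and 9.37% of all genes tested did). Their median log2 fold change was -0.04, against -0.0011 over all genes. RORB and FBXL21, with at most 2 counts per library, and PPARGC1A, with 4 to 15, were too low to be tested. Among the 6 tested genes of the core loop (NPAS2, ARNTL2, NR1D1, RORA, BHLHE41 and C1orf51, now CIART), the 6 kinase subunits that mark PER proteins or other clock proteins (CSNK1D, CSNK1E, CSNK2A1, CSNK2A2, CSNK2B and GSK3B) and the 6 tested cofactors, none was called. At an unadjusted p under 0.05 these groups held 1, 1 and 2 of 6 genes each, against 32.4% of all genes. Of all 29 tested genes of this list, 13 (44.8%) were under it. CSNK1D, the main kinase of PER proteins, changed by 0.21 (adjusted p = 0.127) and its paralog CSNK1E by -0.04 (adjusted p = 0.838).

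**Figure D4:**
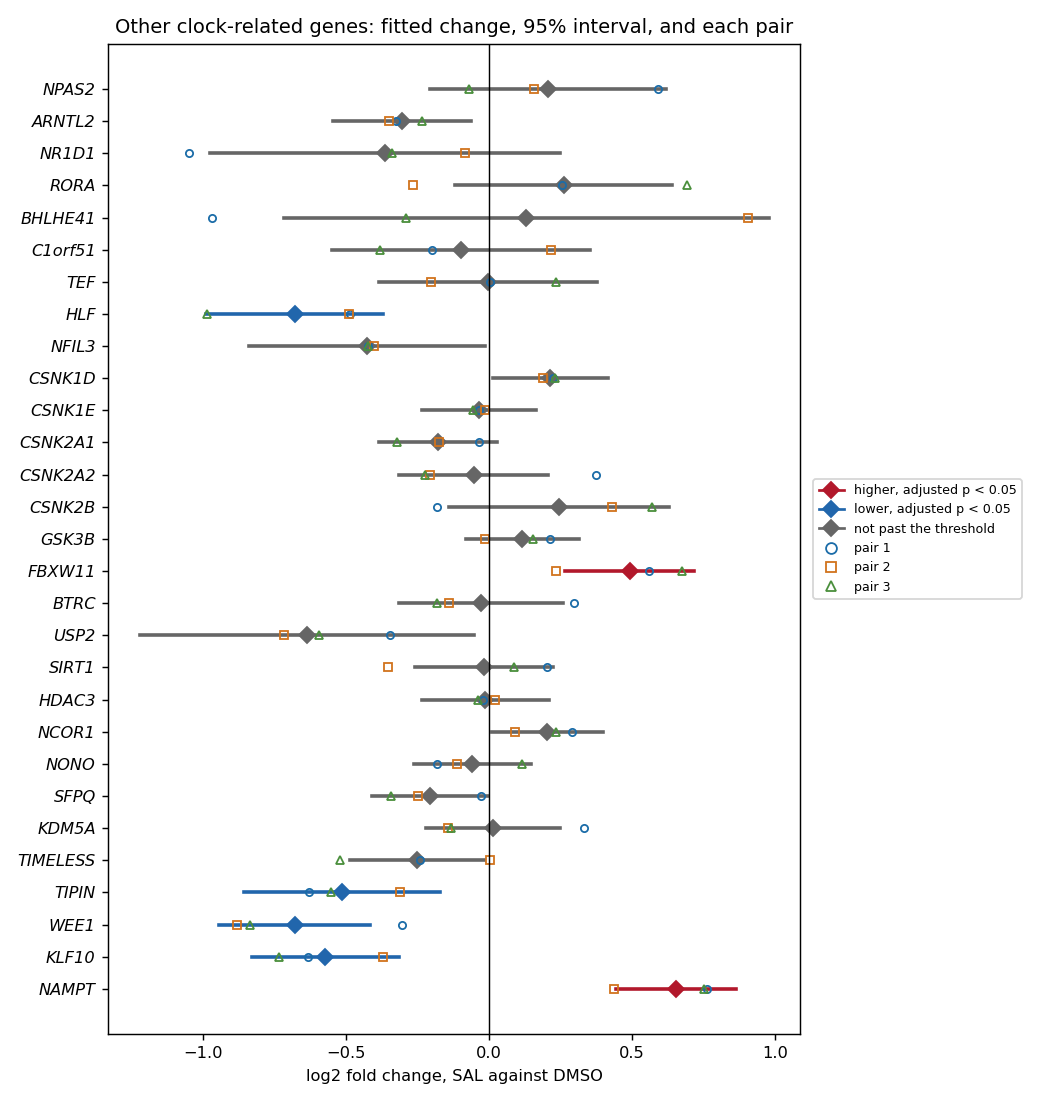
Fitted log2 fold change of SAL against DMSO (diamonds) with its 95% interval (bars) and the difference in each pair (open symbols) for the 29 tested genes of the wider clock list. FBXW11 and NAMPT lie right of 0 at 0.49 and 0.65, and HLF, TIPIN, WEE1 and KLF10 lie left of it between -0.68 and -0.51.

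Of the 3 output genes listed, WEE1, KLF10 and NAMPT, all were called, against 20.8% of all genes in either direction. The list is short and was chosen with earlier results known, and the output factors DBP, TEF and NFIL3 were not called. NAMPT, the rate-limiting enzyme of NAD salvage, rose from 152, 103 and 141 CPM in DMSO to 258, 140 and 237 in SAL, which is 0.65 on the log2 scale with a standard error of 0.10 (adjusted p = 0.000193). WEE1, a kinase that holds back entry into mitosis, had 47.3, 58.1 and 73.2 CPM in DMSO and 38.3, 31.5 and 40.9 in SAL, without overlap of the groups. It fell by 0.68 on the log2 scale with a standard error of 0.12 (adjusted p = 0.00111). KLF10, a transcription factor of metabolism and TGF-beta signaling, fell by 0.57 on the log2 scale (standard error 0.12, adjusted p = 0.00294). HLF, which binds D-boxes like its relative DBP, fell from 15, 29.7 and 42.8 CPM to 10.6, 21.1 and 21.4, which is -0.68 on the log2 scale with a standard error of 0.15 (adjusted p = 0.00337). The other D-box factors, TEF and the opposing repressor NFIL3, were at -0.0040 and -0.43 (adjusted p = 0.992 and adjusted p = 0.138). FBXW11, a subunit of the ubiquitin ligase that marks phosphorylated PER proteins for degradation, rose from 60.2, 73.6 and 72.6 CPM to 88.9, 86.6 and 116, without overlap of the groups, which is 0.49 on the log2 scale with a standard error of 0.11 (adjusted p = 0.00341). Its paralog BTRC was at -0.03 (adjusted p = 0.913). TIPIN, a replication fork protein that partners TIMELESS, fell by 0.51 on the log2 scale (standard error 0.16, adjusted p = 0.0335), and TIMELESS was at -0.25 (adjusted p = 0.127). The pseudogene RPL9P25 overlaps 21.1% of the exon bases of TIPIN. Without replicate 3, NAMPT was the only one of the 6 past the threshold, and TIPIN was also lost without replicate 1 (adjusted p = 0.113) and by DESeq2 (adjusted p = 0.151, block kept). Dropping the replicate block left none called (adjusted p = 1.00 for each).

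Among all genes tested, the profile most like that of PER1 belonged to CYP4F11, measured as the root mean square difference of the log2 CPM of the 6 libraries, each gene centered on its mean. This difference was 0.059 for CYP4F11, 0.086 for SIM2, 0.091 for RP1-90G24.10, 0.113 for HMGXB3 and 0.123 for DPYSL4, against a median of 0.90 over 16834 genes. All 5 rose in SAL, with log2 fold changes from 0.71 to 0.91, and had their lowest level of each group in replicate 1. Both traits follow from the choice of genes by their likeness to PER1. RP1-90G24.10 and DPYSL4 were not called by DESeq2 with the block (adjusted p = 0.222 and 0.105) or without replicate 2 (0.0603 and 0.0583), and RP1-90G24.10 also not with library size alone (adjusted p = 0.0727). Without replicate 3, CYP4F11, RP1-90G24.10 and DPYSL4 lost their calls (adjusted p from 0.125 to 0.434). For PER3, the nearest profiles were those of SLC7A2 (0.065), ROBO1 (0.11), QSER1 (0.114), MKI67 (0.123) and CYB5RL (0.123), against a median of 0.76. These 5 fell, with log2 fold changes from -0.65 to -0.49, which likewise follows from the choice by likeness to PER3. CYB5RL was not called by DESeq2 with the block (adjusted p = 0.121) or without replicate 2 (adjusted p = 0.131), and without replicate 3 the calls of ROBO1, MKI67 and CYB5RL were lost (adjusted p from 0.0622 to 0.169). None of the 10 was called without the block (adjusted p = 1.00). MKI67, the gene of the proliferation marker Ki-67, had 162, 252 and 356 CPM in DMSO and 110, 188 and 250 in SAL. With 6 libraries, many genes can share a profile, and nothing on shared control can be read from it.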

How the data were processed

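RNA-seq counts of 6 C4-2 libraries were used. The deposited values are unnormalized counts, 1 per gene symbol. To make them, the authors aligned trimmed first reads to hg19 (tophat 2.1.0) and assigned them to exons of gencode v19 with htseq-count 0.11.2, ignoring strand. Reads that fit more than 1 gene were left out (1.33% to 2.12% of uniquely mapped reads), as were reads with several map positions. The tallies of htseq-count described the libraries only.

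As in the methods of the study, rRNA genes were removed (523 symbols). Genes were filtered with filterByExpr, scaled by TMM and tested with the quasi-likelihood test of edgeR 4.0.16 (R 4.3.3, robust, replicate number as block). The numbers pair the libraries, since same-numbered libraries deviated together (r = 0.89, 0.86 and 0.74 after removing each group's mean) and the study used a paired test. The scaled library sizes give the CPM, and pair differences use log2 CPM (prior count 2). A standard error is |log2 fold change| over the square root of F, and intervals are 95%. Ratios of counts were compared with exact permutation tests (scipy 1.17.1), which do not use the pairing. No libraries of a group agreed within sampling noise. Only 6 libraries limit every p-value. In the fits with the block, a p-value sets the change against the variation left after the spread between replicate numbers is removed.

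The genes and lists were chosen with earlier results of these data known. Named genes are the 10 clock genes, each gene of the wider list past the threshold, and the 5 genes most like the clock gene with the smallest adjusted p in each direction (PER1 and PER3). Others were named after their values were seen. Some genes of the wider and marker lists are not reported here and were left out of their counts and sums. On simulated data for this comparison (16358 genes), 91.0% of 100 genes changed by 1 on the log2 scale were recovered with the right sign. Of 100 changed by 0.5, 55.0% were, and unchanged genes made up 5.19% of the calls. The simulation gave genes of like level the same spread and changed only a few genes, none with a low mean count. These shares need not hold for the real counts. Positions and exon lengths are from GRCh37 with GENCODE v44 lifted to it, and promoters from RefSeq.

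The alternatives were DESeq2 1.42.0 with the block, its size factors in edgeR, library size alone, dropping the replicate block, dropping the filter, requiring 10 counts in each library, keeping the rRNA genes, removing mitochondrial genes, and leaving out each replicate number in turn.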

Additional observations from a re-analysis of the deposited data

How the results depend on the processing

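The replicate block changed the results most. Without it, no clock gene was up-regulated or down-regulated (0 and 0 by edgeR, with 0 of 10 at an unadjusted p under 0.05), nor was any gene of the wider list (0 and 0), and 21 genes were called in all, against 3508 with it. With DESeq2 and the block, the up-regulated clock gene was again PER1 and 1 was down-regulated (PER3). Down-regulated clock genes numbered 1 without the filter and 4 with library size alone (PER2, PER3, NR1D2 and DBP), a scaling that moved the median of all genes by -0.10 and the share of up-regulated among all calls from 55.0% to 37.2%. Relative to that shift, NR1D2 at -0.32 and DBP at -0.65 changed by about as much as with TMM. When 1 replicate number was left out, up-regulated clock genes ranged from 0 (without replicate 3) to 1, and down-regulated ones from 1 (without replicate 3) to 3, including NR1D2 without replicate 1. In the wider list, from 1 to 2 were up-regulated and from 0 to 5 down-regulated (TIMELESS added without replicate 2), with the lowest counts without replicate 3. Calls over all genes also fell without replicate 3, to 1233 (4.41% of all genes up-regulated and 2.84% down-regulated). ARNTL and CLOCK, whose changes were near 0, turned negative with library size alone (-0.059 and -0.030). With 1 replicate number left out they ranged from -0.141 to 0.145 and from -0.034 to 0.115, and were negative without replicate 1. For the ratio of ARNTL to CLOCK, the difference ranged from -0.107 to 0.057, negative without replicate 1 alone. The cause was not tested beyond the fewer libraries. Averaging the pair differences (a replicate block) gives the same ratios, with exact sign-flip p-values that cannot go below 0.25. PER1 stayed higher, and PER2 and PER3 lower, in all 11 alternatives. Counts of 37 to 127 for DBP and 40 to 219 for PER1 limit their precision.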
